A study of Mus musculus with 39 samples.

Results

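The 8 regulators of cortical area and regional identity followed here, in fluorescently labeled cells of the embryonic mouse neocortex, were Lhx2, Emx1, Emx2, Dmrta2, Nr2f1, Nr2f2, Sp8 and Lmo4. They were chosen for their known role and not for a measured value, though with earlier results of these data known. They came from 53379 genes in the count tables, and all 8 were counted in at least some libraries. The clearest difference lay between ages. Sp8 was counted in 14 of 15 libraries at embryonic day 13 (E13), with 1055 counts in all, and in 4 of 21 libraries at E16, with 30 counts in all. Sp8 passed the test in green cells, where all 7 E16 libraries had 0 counts, and in the embryos with their colors summed. The summed result was lost in 9 of 11 fits that left out 1 embryo. No other member passed in any comparison, although 7 of the 8 had a lower median at E16 when the colors were summed.

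The neocortex is divided into areas by transcription factors that are graded across the sheet of radial glia progenitor cells. Signals from patterning centers at its edges, such as Fgf8 at the anterior midline and Wnts and Bmps at the cortical hem, set these gradients, and factors high at opposite ends restrain each other. Emx2, Dmrta2 and the nuclear receptors Nr2f1 and Nr2f2 are known for high levels toward the caudal pole, and Sp8 for high levels toward the front. Lhx2 and the Emx genes also keep the dorsal telencephalon cortical, and Lmo4 acts later, in neurons.

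RNA was sequenced from 200 to 400 fluorescent cells per library, sorted from dissected neocortex of single embryos at E13 (6 embryos) or E16 (7 embryos). All embryos carried the MADM-7 GT and TG cassettes on chromosome 7 and Emx1-Cre, on a mixed C57BL/6J and CD1 background, with no other mutation named. In Mosaic Analysis with Double Markers (MADM), Cre-driven recombination between homologous chromosomes labels scattered cells. Those with a single reporter, red for tdTomato or green for GFP, have inherited the pair of chromosomes 7 from the same parent (uniparental disomy), whereas yellow cells carry both reporters and the usual maternal and paternal chromosome. In the cross the study describes, the green cells hold the maternal pair and the red cells the paternal pair. The sample labels name the color alone, and red and green were averaged as singly colored cells and compared with yellow cells, an average in which opposite differences of red and green would cancel. Cre is expressed from the Emx1 locus, so every library is drawn from the Emx1 lineage, and every embryo carries the insertion in Emx1, itself one of the 8 genes.

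Of the 39 libraries, 36 had at least 40% uniquely aligned reads and were kept: 5 of each color at E13 and 7 of each color at E16. They held 472924 to 5205788 gene counts and 7858 to 13768 detected genes, so that 3 counts, the lowest level read as present, corresponded to between 0.576 and 6.34 CPM, the count scaled to the total gene counts of its library. This floor covers counting error only, as reads were amplified and carried no molecular identifier. E16 red replicate 7 and E16 green replicate 4 were the shallowest, and 5 libraries (E13 yellow 2, E13 green 4, E16 red 5 and 6, E16 yellow 7) had under 10000 detected genes. The pan-neuronal Tubb3 and the intermediate progenitor gene Eomes were counted in every library kept, and the radial glia gene Sox2 in all but 3 at E16. Each library is a bulk sample, so fewer cells of a type and less RNA per cell cannot be told apart in what follows.

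Scaled by exon length, so that genes could be compared, 3 members stood well above the rest. The median over the 36 libraries was 34.9 CPM per kilobase for Lmo4, 31.8 for Lhx2 and 26.5 for Nr2f1, and these neighbors were not separated: Lmo4 was above Lhx2 in 20 of 36 libraries and Lhx2 above Nr2f1 in 21. The next step was clear, with Nr2f1 above Emx1 (median 5.09 CPM per kilobase) in 33 of 36 libraries. Emx2 followed with a median of 3.10 CPM per kilobase, Nr2f2 with 0.976, Dmrta2 with 0.749 and Sp8 with 0.0464. Within this lower group Emx1 exceeded Emx2 in 20 of 36 libraries, Nr2f2 exceeded Dmrta2 in 18 and Dmrta2 exceeded Sp8 in 17, so those neighbors changed places from library to library. Emx2 exceeded Nr2f2 in 26. This order pools the ages and changed with age. At E13 the median of Sp8, 3.67 CPM per kilobase, was above that of Dmrta2 (2.20) and Nr2f2 (2.09), and that of Lhx2 (41.7) above Nr2f1 (38.2) and Lmo4 (36.1), while at E16 the median of Sp8 was 0.

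**Figure D1:**
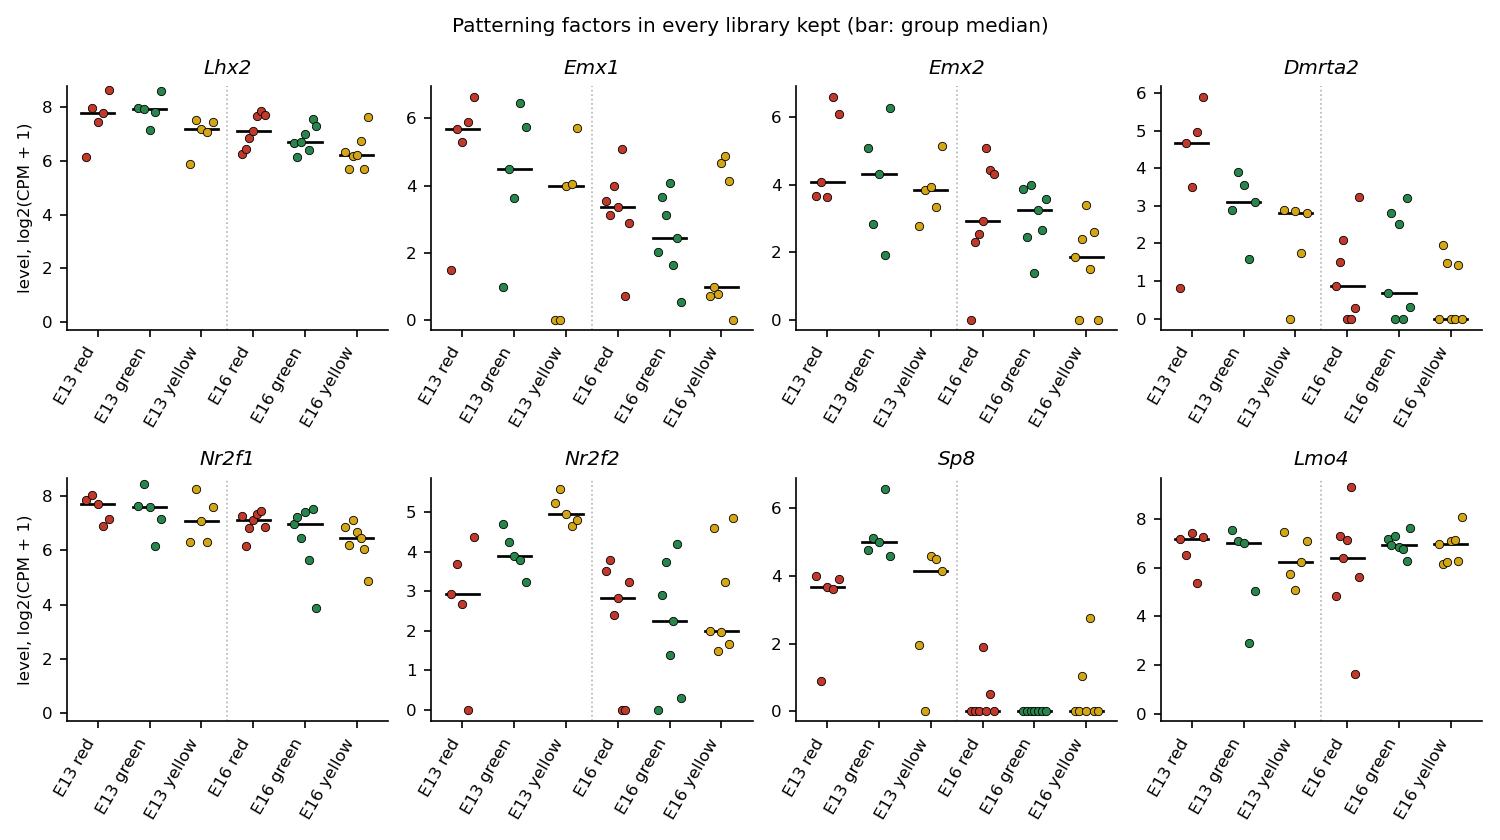
Level of each gene in every library kept, as log2(CPM + 1) on the vertical axis, for the 6 groups of age and color on the horizontal axis; each point is 1 library and each bar a group median. Sp8 sits at 0 in all 7 E16 green libraries and in 5 of 7 of both other E16 colors, while Lhx2 is present in every library.

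Sp8 (ENSMUSG00000048562.7) encodes a zinc finger transcription factor that works with Fgf8 in frontal patterning, and is also known from some interneuron lineages. The gene lies on the plus strand of chromosome 12 (GRCm38, 118846329 to 118852576). At E13 the 5 green libraries had 26.2, 34.2, 31.2, 94.9 and 23.3 CPM, and at E16 all 7 green libraries had 0 counts. Every E13 green library was therefore above every E16 green library. A floor of 3 counts over all 7 E16 green libraries is 0.133 CPM. The E13 green mean of 42.0 ± 29.9 CPM (SD, n = 5) was 315 times this floor. That ratio takes in counting error only and is no bound on the fall. The mean leans on replicate 4 (94.9 CPM), a library with under 10000 detected genes.

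The same direction held in the other colors with more overlap. The E13 red libraries had 15.2, 0.874, 11.7, 11.1 and 13.9 CPM of Sp8, and at E16 only red replicate 4 (2.72 CPM, 9 counts) and replicate 6 (0.423 CPM, 2 counts) had any. Yellow libraries at E13 had 2.91, 0, 23.3, 21.7 and 16.7 CPM, and at E16 only yellow replicate 5 (5.82 CPM, 16 counts) and replicate 3 (1.07 CPM, 3 counts) did. Both colors overlapped between ages, through E13 red replicate 2 and E13 yellow replicates 1 and 2, which lay below the highest E16 library of their color. With the 3 libraries of an embryo summed, the 4 complete E13 embryos had 13.05, 14.5, 36.7 and 17.8 CPM, and the 7 E16 embryos ranged from 0 to 1.61 CPM with a median of 0.150, so the ages did not overlap.

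Dmrta2 (ENSMUSG00000047143.3), also called Dmrt5, encodes a doublesex-related factor of the caudal and medial cortex that is needed for the cortical hem. It lies on the plus strand of chromosome 4 (109978053 to 109983687). The E13 red libraries had 0.771, 24.5, 10.3, 30.2 and 58.2 CPM, and the 7 E16 red libraries 0 to 8.46 with a median of 0.827. Only E13 red replicate 1 fell inside the E16 range, and the highest E16 red value rests on 4 counts in the shallowest library. In green, 6.43, 13.8, 10.7, 2.01 and 7.59 CPM at E13 stood against a range of 0 to 8.27 and a median of 0.618 at E16. Yellow cells had 6.40, 0, 6.24, 2.37 and 6.04 CPM at E13, and 4 of 7 yellow libraries at E16 had none. Summed by embryo, 4.06, 12.5, 13.2 and 24.6 CPM at E13 lay above every E16 embryo (0 to 3.82 CPM, median 0.678).

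Nr2f2 (ENSMUSG00000030551.14), or COUP-TFII, is an orphan nuclear receptor of the caudal and temporal cortex and of caudally born interneurons. It is the only member on chromosome 7 (minus strand, 70351944 to 70366735), the chromosome for which the singly colored cells are disomic. Yellow cells at E13 had its highest levels, 36.6, 47.5, 30.3, 24.0 and 27.2 CPM, against 1.79 to 27.8 CPM with a median of 2.95 at E16. All but E16 yellow replicate 7 (27.8 CPM) were below every E13 yellow library, though replicate 2 (23.2 CPM) came close. In red cells the ages overlapped throughout, with 6.69, 11.9, 5.37, 0 and 19.6 CPM at E13 and a range of 0 to 12.95 and median of 6.05 at E16. Green cells had 25.2, 18.1, 14.0, 12.9 and 8.35 CPM at E13 and 0 to 17.2 at E16, with a median of 3.73. Summed by embryo, Nr2f2 ran from 15.9 to 25.5 CPM at E13 and from 3.71 to 11.3 CPM at E16, and these ranges did not overlap.

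Lhx2 (ENSMUSG00000000247.11), a LIM homeodomain factor, is the selector gene that keeps progenitors cortical and away from hem and antihem fates. It lies on the plus strand of chromosome 2 (38339281 to 38369733). Green cells showed its largest age difference. Their E13 libraries had 250, 243, 142, 228 and 387 CPM and their E16 libraries 70.7 to 187 CPM with a median of 104, so that only E13 green replicate 3 fell inside the E16 range. Red cells had 70.5, 248, 176, 222 and 401 CPM at E13 and a median of 137 (75.2 to 230) at E16. Yellow cells had 58.7, 183, 146, 136 and 174 CPM at E13 and a median of 73.9 (51.3 to 199) at E16. In red and yellow cells the ages overlapped.

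The Emx homeodomain genes mark the dorsal telencephalon, and Emx2 in particular promotes caudal area identity. Emx1 (ENSMUSG00000033726.8, plus strand of chromosome 6, 85187438 to 85204462) was very uneven: the E13 red libraries had 1.8, 51.0, 38.5, 58.1 and 98.4 CPM, and the 3 libraries of E13 embryo 1 had 1.8 in red, 0.989 in green and 0 in yellow. At E16 its median was 9.37 CPM in red, 4.47 in green and 0.969 in yellow, with 4 of 7 yellow libraries under 3 counts. Although it gave the sort its Cre, Emx1 was thus at or near 0 in several libraries of both ages. Emx2 (ENSMUSG00000043969.4, plus strand of chromosome 19, 59458372 to 59465357) had summed levels of 14.1, 11.0, 38.5 and 58.6 CPM in the E13 embryos and 3.71 to 15.3 CPM (median 7.73) in the E16 embryos. Only E16 embryo 5 (15.3 CPM) reached into the E13 range.

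Nr2f1 (ENSMUSG00000069171.14), or COUP-TFI, is the nuclear receptor that sets the size of sensory against frontal and motor territory. It lies on the minus strand of chromosome 13 (78188973 to 78199757). The summed levels were 166, 311, 113 and 160 CPM at E13 and 25.1 to 142 CPM (median 109) at E16. The ages overlapped, and in each color the medians differed by less than the range of either group. Lmo4 (ENSMUSG00000028266.17, minus strand of chromosome 3, 144188530 to 144205220) encodes a LIM-only protein without a DNA-binding domain, which shares the cofactor Ldb1 with LIM homeodomain factors and later marks areas of the postnatal cortex. It alone had a higher summed median at E16, 130 CPM (49.5 to 298) against 104 at E13 (28.9 to 163). Its E16 red libraries ran from 2.11 CPM in replicate 6 to 633 CPM in replicate 5, the widest range of any member in any group. Both of these libraries had under 10000 detected genes.

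E16 was compared with E13 in each color and in the summed embryos with edgeR's quasi-likelihood test over all genes, adjusted by Benjamini-Hochberg. In green cells 1 of 8 members passed at an adjusted p under 0.05, and this was Sp8 (adjusted p = 0.00814). Of all genes tested there, 1.39% passed. Sp8 met the count minimum in green through its 597 counts at E13 alone, as E16 had 0. Its own spread in this test comes from the 5 E13 libraries, since the 7 E16 libraries are all at 0. The fitted log2 fold change of Sp8 in green, -10.02 ± 1.36 (SE), depends on the constant edgeR adds to zeros and is no bound. In the summed embryos 1 of 8 members passed against 2.64% of all genes, again Sp8, with a log2 fold change of -5.23 ± 1.25 (SE, adjusted p = 0.0416, edgeR). The green result kept its side of the threshold without any 1 library, with an adjusted p of at most 0.0240 (edgeR). The summed result did not: it was lost in 9 of 11 fits that left out 1 embryo (each E13 embryo, and E16 embryos 1, 2, 3, 4 and 6), with adjusted p from 0.0529 to 0.135 in edgeR, while its log2 fold change stayed between -6.00 and -4.75.

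No member passed in yellow or red cells. In yellow cells 0 of the 7 members tested passed, against 0.149% of all genes, Dmrta2 being too low to be tested there. In red cells 0 of 8 passed, against 0.322% of all genes. At an unadjusted p under 0.05, edgeR gave 989 genes and 0 members in yellow, and 1305 genes and 2 members in red. The red members were Sp8 with a log2 fold change of -4.30 ± 1.66 (SE, adjusted p = 0.279) and Dmrta2 with -3.64 ± 1.45 (SE, adjusted p = 0.296, edgeR). In yellow cells Sp8 had -3.66 ± 1.79 (SE, adjusted p = 0.607) and Nr2f2 -1.78 ± 0.90 (SE, adjusted p = 0.638, edgeR).

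Among the members that did not pass, the fits gave lower values at E16 for all but Lmo4. In the summed embryos the log2 fold change was -3.03 ± 1.09 for Dmrta2 (adjusted p = 0.150), -1.75 ± 0.61 for Emx2 (adjusted p = 0.138) and -1.43 ± 0.57 for Nr2f2 (adjusted p = 0.191, all SE and edgeR). It was -1.71 ± 0.87 for Emx1, -0.67 ± 0.37 for Nr2f1 and -0.65 ± 0.31 for Lhx2. Lhx2 in green cells had -1.04 ± 0.33 (SE, adjusted p = 0.132, edgeR), and passed when the same counts were tested with DESeq2 (adjusted p = 0.0242). Lmo4 had 0.73 ± 0.50 in the summed embryos and 0.69 ± 0.91 in red cells, where its median was lower at E16, 83.9 CPM against 142 at E13. Without E16 red replicate 5 the red value turned to -0.56.

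**Figure D2:**
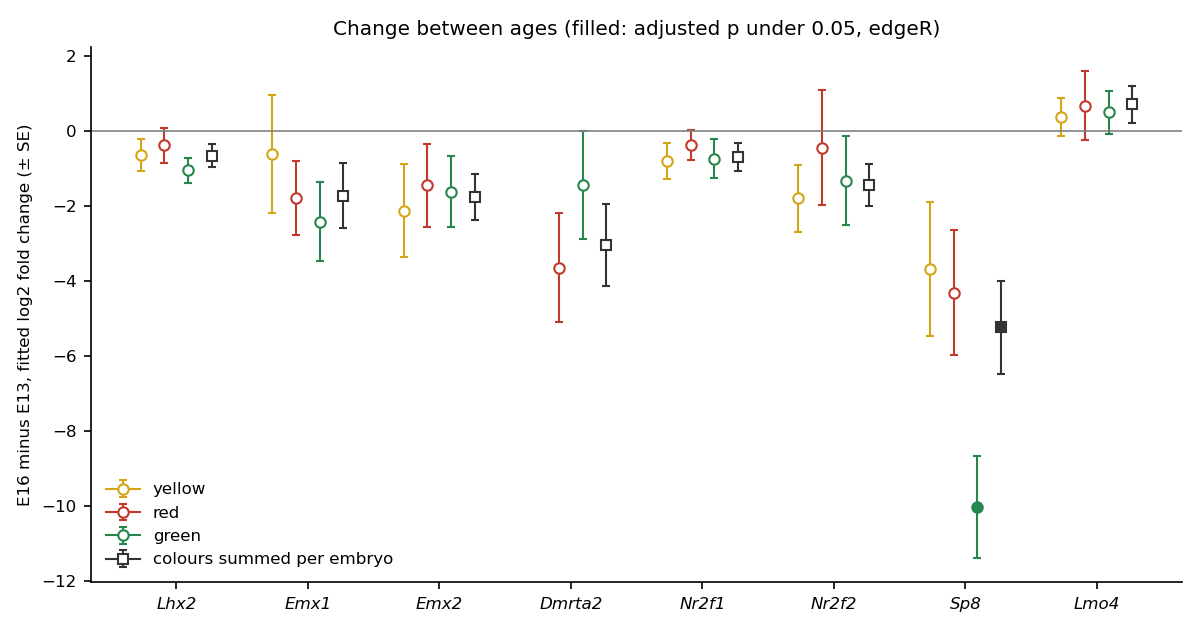
Fitted log2 fold change of E16 against E13 on the vertical axis for each gene, in yellow, red and green libraries and in embryos with colors summed; bars are standard errors and filled symbols have an adjusted p under 0.05 in edgeR. Only Sp8 is filled, in green (-10.02) and in the summed embryos (-5.23), and Lmo4 alone lies above 0 in every comparison.

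Separation of the ages was also counted directly. Every E16 value lay below every E13 value for 1 of 8 members in green cells (Sp8), where 1.99% of all genes did so, and for 3 of 8 in the summed embryos (Sp8, Dmrta2 and Nr2f2), where 3.9% did. In red and in yellow cells 0 of 8 members were separated, against 1.93% and 0.738% of all genes. The median was lower at E16 for all 8 members in red and in green cells and for all but Lmo4 in yellow cells and in the summed embryos. The median log2 fold change over the 8 members in the summed embryos was -1.57, beside 0.04 over all genes tested. Since the 8 were chosen as a group for their role, these counts describe the members and are no test of them as a set.

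The upstream sequences of the 3 members whose summed ages did not overlap are shown with that of Lhx2, a member present in every library. Each run is the 250 bases before the outermost RefSeq start of the gene, written 5′ to 3′ on its own strand (build GRCm38.p6), and capitals mark the GC box GGGCGG on either strand. The windows are chr12:118846079-118846328 (plus) for Sp8, chr4:109977775-109978024 (plus) for Dmrta2, chr7:70366747-70366996 (minus) for Nr2f2 and chr2:38339031-38339280 (plus) for Lhx2.
Sp8: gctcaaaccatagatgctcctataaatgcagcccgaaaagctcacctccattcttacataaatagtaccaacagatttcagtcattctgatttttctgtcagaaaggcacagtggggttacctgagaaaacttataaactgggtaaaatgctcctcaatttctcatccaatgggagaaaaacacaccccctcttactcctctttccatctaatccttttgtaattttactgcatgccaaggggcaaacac
Dmrta2: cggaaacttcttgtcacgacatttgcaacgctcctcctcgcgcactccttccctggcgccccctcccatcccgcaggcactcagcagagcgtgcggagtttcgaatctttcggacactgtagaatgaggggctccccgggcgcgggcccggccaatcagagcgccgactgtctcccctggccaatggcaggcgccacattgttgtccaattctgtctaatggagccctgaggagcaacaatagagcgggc
Nr2f2: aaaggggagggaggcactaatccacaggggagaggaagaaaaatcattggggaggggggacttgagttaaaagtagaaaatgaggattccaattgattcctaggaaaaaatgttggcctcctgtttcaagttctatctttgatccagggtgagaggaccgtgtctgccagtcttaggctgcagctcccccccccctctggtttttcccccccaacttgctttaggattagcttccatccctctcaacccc
Lhx2: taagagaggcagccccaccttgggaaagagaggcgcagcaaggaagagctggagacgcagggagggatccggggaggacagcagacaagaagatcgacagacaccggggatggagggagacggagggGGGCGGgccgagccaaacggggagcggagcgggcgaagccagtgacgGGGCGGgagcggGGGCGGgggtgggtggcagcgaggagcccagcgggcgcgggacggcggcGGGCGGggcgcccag

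Lhx2 holds 4 copies of the GC box in this window, and Sp8, Dmrta2 and Nr2f2 hold 0. All 8 members had a RefSeq entry, and 5 of 8 windows held the motif (Emx1 with 4, Emx2 with 2, Lhx2 with 4, Nr2f1 with 1 and Lmo4 with 3), against 33.0% of the windows of 27025 genes. The homeodomain core TAATTA was in 0 of 8 windows (4.91% of all genes) and the nuclear receptor half-site AGGTCA in 0 of 8 (13.8% of all genes), both strands searched. The G and C content was 40.8% for Sp8, 50% for Nr2f2, 61.6% for Dmrta2 and 72.8% for Lhx2, beside a median of 52.0% over all genes. The windows of Emx1, Emx2 and Nr2f1 lie within the annotated exons of those genes, since the Gencode gene begins further upstream. A match here is a run of letters and not a bound site.

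Singly colored cells were then compared with yellow cells of the same embryo. The former hold 2 copies of chromosome 7 from the same parent and the latter a copy from each. The comparison is not of disomy alone, as the cell type markers of these libraries differed too (given below). No member passed at either age. At E13 0 of 8 members passed, against 0.00848% of all genes (1 gene), and at E16 0 of the 6 members tested passed, against 0% of all genes, Dmrta2 and Sp8 being too low to be tested. At an unadjusted p under 0.05 edgeR gave 808 genes at E13 and 257 at E16, and DESeq2 gave 82 genes at an adjusted p under 0.05 at E16. The age difference of this contrast passed for 0 of 8 members and for 0% of all genes in edgeR, with 475 genes at an unadjusted p under 0.05 and 215 genes by DESeq2.

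Lhx2 was the most even of the members in this comparison. Its singly colored cells lay above yellow cells in 4 of 4 E13 embryos, by 0.42 to 1.17 on the log2 CPM scale, and in 6 of 7 E16 embryos, the exception being embryo 7 (-0.12). The fits gave 0.83 ± 0.37 at E13 (SE, adjusted p = 0.714) and 0.65 ± 0.35 at E16 (SE, adjusted p = 1, edgeR), neither past the threshold. Nr2f2 went the other way at E13: both single colors were below yellow in 4 of 4 embryos, by 1.04 to 3.42 on the log2 scale when averaged, and the fit gave -1.74 ± 1.12 (SE, adjusted p = 0.818, edgeR). At E16 Nr2f2 was higher in singly colored cells in 3 of 7 embryos.

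Emx1 and Sp8 also had the same sign in every complete E13 embryo, higher in singly colored cells in 4 of 4 with the colors averaged. Each color of Emx1 was above yellow in 4 of 4. For Sp8 green was above yellow in 4 of 4 but red in only 2. The within-embryo differences of Emx1 ran from 0.47 to 5.77 and those of Sp8 from 0.10 to 3.55. Both were largest in embryo 2, whose yellow library had 0 counts of either gene. At E16 Emx1 was higher in 4 of 7 embryos, and Sp8 in 2, lower in 2 and at 0 in all colors of the other 3. Emx2 was higher in 3 of 4 embryos at E13 and in 5 of 7 at E16, Dmrta2 in 3 of 4 and 5 of 7, and Nr2f1 in 2 of 4 and 6 of 7. Lmo4 was higher in 1 of 4 and 3 of 7. At E16 every member had embryos of both signs.

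**Figure D3:**
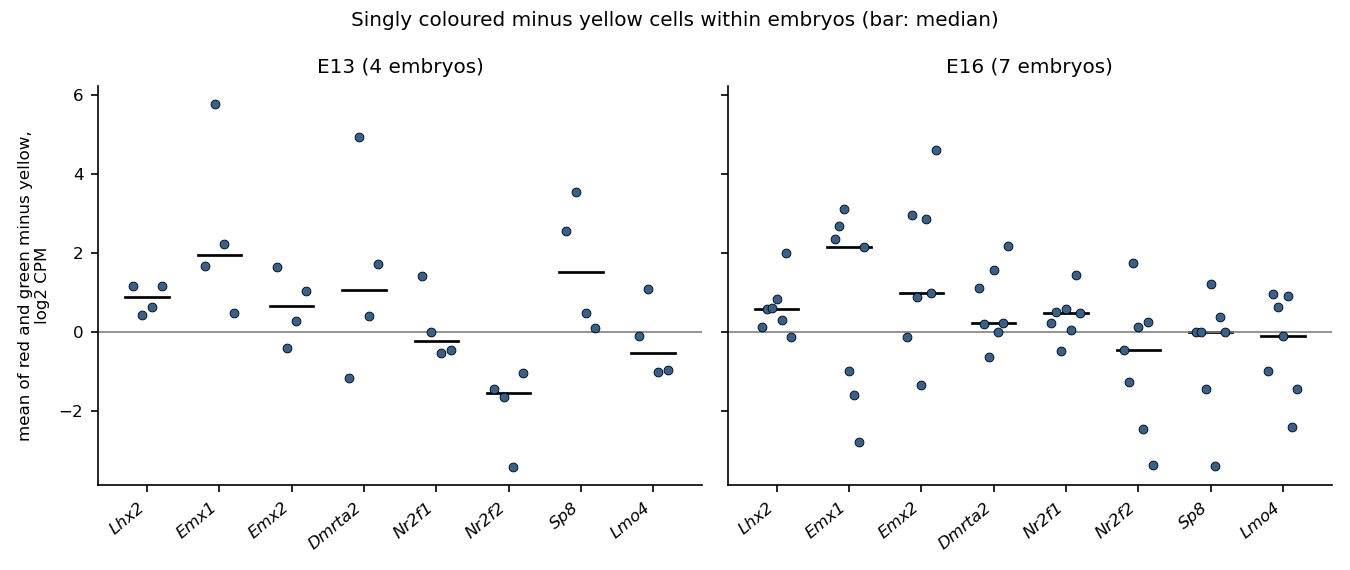
Difference between the mean of the red and green libraries and the yellow library of the same embryo, in log2 CPM on the vertical axis, for each gene at E13 (4 embryos) and E16 (7 embryos); points are embryos and bars medians. Lhx2 lies above 0 in all but E16 embryo 7, and Nr2f2 lies below 0 in all 4 E13 embryos.

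Yellow libraries also differed from singly colored ones in their cell type markers. At E13 the summed level of 10 radial glia genes was 790 to 1905 CPM in yellow, 2076 to 3499 in red and 2409 to 3614 in green, so that yellow did not overlap either. The summed level of 9 Cajal-Retzius genes, markers of early marginal zone neurons, was 303 to 731 CPM in yellow (median 628), 85.1 to 918 in red (median 135) and 38.6 to 475 in green (median 128), so the colors overlapped. The summed level of 12 projection neuron genes was 5631 to 7299 CPM in yellow, 3717 to 5610 in red and 3091 to 5227 in green, so that yellow was above both without overlap. At E16 the radial glia sums overlapped between colors (246 to 1825 CPM in yellow, 875 to 4002 in red, 1006 to 3472 in green). The part of these marker levels in the yellow values of Lhx2, Nr2f2 and the other members was not tested.

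Replicate libraries of a group differed widely for most members. The pooled SD within groups, on the log2 CPM scale, was 0.66 for Lhx2 and 0.84 for Nr2f1, smaller than that of all but 5.47% and 10.5% of the genes measured. It was 1.25 for Sp8, 1.45 for Lmo4, 1.5 for Emx2, 1.51 for Dmrta2 and 1.56 for Nr2f2, and 2.09 for Emx1, larger than that of 77.2% of genes. The median gene had 1.77. A group with every library at 0 adds no spread, as with Sp8 in the 7 E16 green libraries, where the SD was 0. In the summed embryos the biological coefficient of variation of the edgeR fit was 0.388 for Lhx2, 0.449 for Nr2f1 and 1.24 for Sp8, beside 0.815 for all genes tested.

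Several of the highest and lowest summed levels are given here by embryo, and some came through 1 library. Of the complete E13 embryos, embryo 6 had the highest summed level of Lhx2 (319 CPM), Emx1 (68.0 CPM), Emx2 (58.6 CPM) and Dmrta2 (24.6 CPM). The caudal factors Nr2f1 (160 CPM) and Nr2f2 (18.7 CPM) were not highest there but in embryo 2 (311 and 25.5 CPM). The Dmrta2 of embryo 6 came mostly from red cells (58.2 CPM, against 7.59 in green and 6.04 in yellow). Embryo 1 had the lowest Lhx2 (105 CPM), Emx1 (0.963 CPM) and Dmrta2 (4.06 CPM), and the highest Lmo4 (163 CPM). Embryo 4 had the highest Sp8 (36.7 CPM) and the lowest Nr2f1 (113 CPM), Nr2f2 (15.9 CPM) and Lmo4 (28.9 CPM), its Sp8 being highest in green cells (94.9 CPM, against 11.1 in red and 23.3 in yellow). At E16, embryo 7 had the highest Lhx2 (176 CPM) with the lowest Nr2f1 (25.1 CPM) and Emx1 (0.678 CPM). Its red library was the shallowest kept (472924 gene counts), and its green and yellow libraries were left out under the correlation rule.

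Genes that work with the 8 members were read from 4 lists. Of 29 patterning transcription factors, 28 were tested in the summed embryos, where 1 rose and 5 fell at E16, with a median log2 fold change of -0.62 beside 0.04 for all genes, of which 2.64% passed in either direction. Pax6, the factor that opposes Emx2 across the cortex and marks radial glia, fell by 1.35 on the log2 scale (median 352 CPM at E13, 118 at E16, adjusted p = 0.0123). Lhx9, a LIM homeodomain relative of Lhx2, fell by 2.68 (adjusted p = 0.0121), from a median of 78.3 to 10.5 CPM. Hes1, the Notch effector of progenitors, fell by 2.29 (adjusted p = 0.0126, edgeR), and Otx1 and Dmrt3, named after their values were seen, were the other two that passed. Zbtb20, known from hippocampal and late-born neurons, rose by 2.55 (adjusted p = 0.0190, edgeR), from 47.9 to 149 CPM.

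The second list held 20 relatives and cofactors of the members. Of 17 tested in the summed embryos, 2 rose and none fell. Ldb2, a close relative of the Ldb1 cofactor that Lhx2 and Lmo4 bind, rose by 2.68 (adjusted p = 0.00271), from a median of 13.8 CPM (6.08 to 16.5) to 65.1 CPM (49.5 to 99.9), with no overlap between ages. Lmo1, a LIM-only relative of Lmo4, rose by 1.48 (adjusted p = 0.0348, edgeR), from 77.4 to 186 CPM.

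Of 32 genes of signaling centers and their receptors, 21 were tested in the summed embryos, and 2 fell and none rose, with a median log2 fold change of -2.17. Fgfr3, a receptor for the Fgf signals that pattern the cortex along its length, fell by 2.86 (adjusted p = 0.0113), from 125 CPM (101 to 306) to 19.7 CPM (3.93 to 41.0). The Wnt receptor Fzd8 fell by 2.79 (adjusted p = 0.0299, edgeR), from 40.8 to 6.68 CPM. All 20 areal effector genes, which mark areas and their borders in neurons, were tested, and 1 rose and none fell, a share near the 2.64% of all genes, with a median of 0.64. This was Id2, which rose by 1.66 (adjusted p = 0.0161, edgeR), from 148 to 481 CPM.

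The lists moved little past the threshold within single colors. In green cells Hes1 fell by 2.60 (adjusted p = 0.0228) and Tcf7l1, a repressor of Wnt targets, by 5.29 (adjusted p = 0.0417, edgeR), of 28 patterning factors tested. Id2 was the only effector to pass in green, with a rise of 1.70 (adjusted p = 0.0202, edgeR). No gene of the 4 lists passed in red or yellow cells, where the smallest p belonged to Id2 in red (log2 fold change 1.85, adjusted p = 0.0792) and Zbtb20 in yellow (2.49, adjusted p = 0.131, edgeR). Between singly colored and yellow cells no gene of the lists passed at either age. Otx1 at E13 (3.14, adjusted p = 0.348) and Eomes at both ages (1.44 at E13, adjusted p = 0.486, and 1.16 at E16, adjusted p = 1, edgeR) had the smallest p of the patterning factors.

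Cell type markers also differed between ages. In the summed embryos, where 2.64% of all genes passed, 7 of 10 radial glia markers fell and none rose. Of 11 projection neuron markers tested 4 rose and none fell. Whether or not they passed, the fold change was negative for 8 of the radial glia and 4 of the projection neuron markers. The summed intermediate progenitor level was 474 to 2249.8 CPM at E13 and 231 to 928 CPM at E16, with medians of 1154 and 391, and 1 of 7 of these markers fell. Interneuron markers, of which some lineages carry Sp8 and Nr2f2, summed to 2.74 to 274 CPM at E13 (median 36.2) and 0 to 50.1 CPM at E16 (median 1.46), and 0 of 6 tested passed. Gad1, their first marker, was at 0 in 9 of 15 E13 libraries, but these included libraries with much of the other interneuron markers, such as E13 yellow replicate 5 with a sum of 274 CPM and E13 green replicate 1 with 141 CPM. Of the markers of cells outside the lineage, those of meninges summed to 0 to 809 CPM at E13 (median 183) and 0 to 42.9 CPM at E16 (median 1.73), and 3 of 6 fell. Those of blood were very uneven, 0.228 to 50601 CPM at E13 (median 49.1) and 0.460 to 6189 CPM at E16 (median 8.03), and 2 of 7 fell. The highest blood sums were in E13 red replicate 1 (50601 CPM), yellow replicate 4 (47378 CPM) and yellow replicate 1 (34711 CPM). Endothelial and microglial markers had a median of 0 at both ages and choroid plexus markers one of 0 at E13 and 2.30 CPM at E16, with none passing, and 1 of 8 Cajal-Retzius markers tested fell. The part of these markers in the age differences of the members was not tested.

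**Figure D4:**
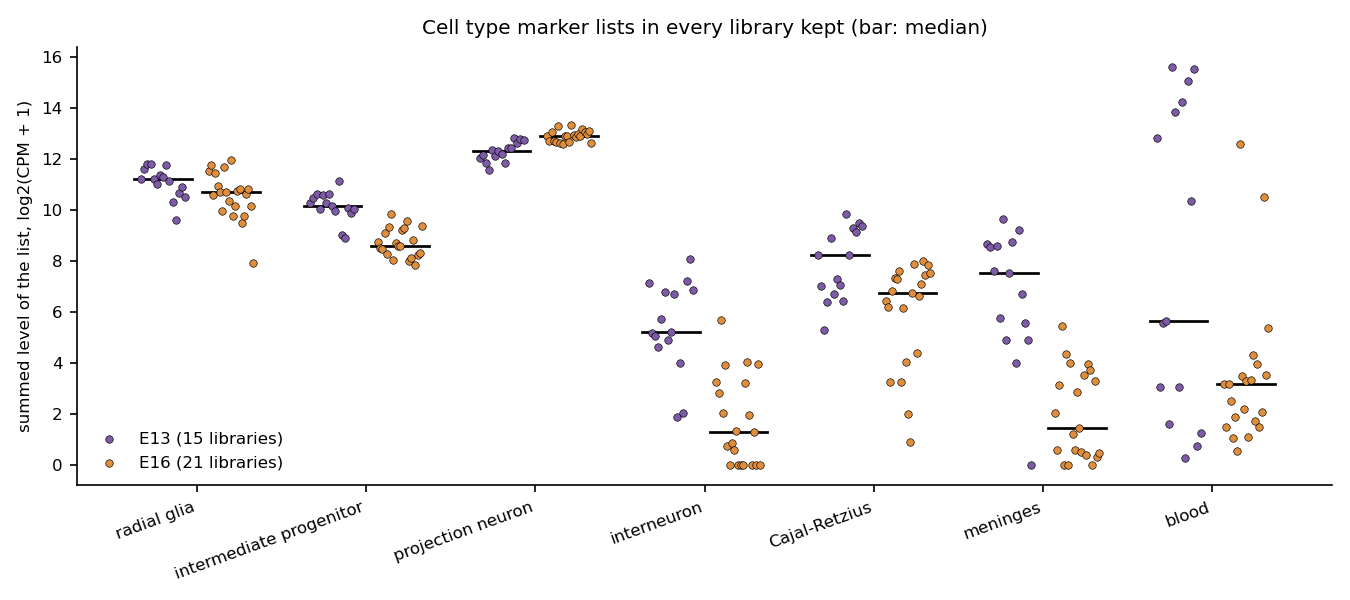
Summed level of 7 cell type marker lists in every library kept, as log2(CPM + 1) on the vertical axis, at E13 (15 libraries) and E16 (21 libraries); points are libraries and bars medians. The projection neuron median is higher at E16, though the ages overlap, and the medians of the other lists plotted are lower.

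The counting ignored strand, so reads of genes that overlap a member cannot be told from its own. Emx2os shares 264 exon bases with Emx2, 8.79% of its exon length, and had 477 counts over the libraries kept, A830082K12Rik shares 123 with Nr2f1 (2.42%, 3558 counts), and B130024G19Rik shares 643 with Nr2f2 (7.46%, 356 counts). These 3 run antisense to the member, and the values of Emx2, Nr2f1 and Nr2f2 are uncertain to that extent. Gm27197 and Gm13584 lie within Lhx2 and Gm43445 within Lmo4 without sharing exon bases, and no annotated gene overlaps Emx1, Dmrta2 or Sp8.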

How the data were processed

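RNA-seq libraries were prepared from sorted cells with Smart-Seq2, which keeps neither strand nor molecular identifiers. Per the labels the authors aligned reads to GRCm38 with STAR (version 2.5.0c), and they deposited for each library a table of raw read counts per gene, not normalized. The unstranded count column was used, since the stranded columns each held a median of 54.6% and 53.0% of it. Of 53379 gene identifiers, 53274 were found, without their version, in Gencode M21 (GRCm38), which gave symbols, coordinates and exon lengths. Rows that name no gene were left out of totals and tests.

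Groups are the age and color in the labels, and single embryos were the replicates. Libraries under 40% uniquely aligned reads were left out (E13 yellow replicate 3, E13 red and green replicate 5), leaving 36. The study used this limit and also removed libraries that correlated poorly with their replicates, so its set was smaller; a correlation rule was tried here as an alternative. CPM is the count over all gene counts of the library; log2 CPM adds a prior count of 2. Upstream sequences are from RefSeq (GRCm38.p6).

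All genes with a mean count of at least 10 entered edgeR 4.0.16 under R 4.3.3 (TMM, quasi-likelihood test, Benjamini-Hochberg over all genes tested, threshold 0.05). Ages were compared within each color and in embryos with all 3 libraries, summed (4 at E13, 7 at E16), without a block, since embryos of the ages are different animals. Red and green, averaged, were compared with yellow with the embryo as a block, as in the study's methods, and the age difference of that contrast as an interaction. Same-numbered libraries of an age were treated as one embryo. After subtracting group means they correlated over genes by 0.0437 on average at E13 (13 pairs) and 0.0292 at E16 (21 pairs), against -0.00914 and -0.00352 between different numbers, so the data add little to the labels here. SE is the log2 fold change over the square root of F. The scripts were tested on simulated counts. Alternatives were DESeq2 1.42.0, other size factors, other count minimums, other library sets, no block, and each library or embryo left out.

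The 8 members and the gene lists were chosen with earlier results of these data known. Named beside the members were up to 4 genes per list and comparison, those of smallest p that passed, or up to 2 where none passed, and annotated genes overlapping a member. For E16 against E13 the p-values measure the spread between embryos, of which 4 to 7 a group limit what can be seen. For singly colored against yellow cells and its age difference the embryo was a block. Those p-values measure the spread among libraries within embryos, with red and green as separate libraries.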

Additional observations from a re-analysis of the deposited data

Results flagged for a closer look

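In 8 of 47 groups of 5 or 7 libraries with any spread, 1 library lay beyond Dixon's 95% critical value for the gap. Chance gives about 1 in 20 for normally distributed values. Groups with many libraries at 0 are not so distributed, and that rate cannot be set against the 8 groups. Sp8 accounts for 4 of them: E13 red replicate 2 had 0.874 CPM (others 11.1 to 15.2), E13 green replicate 4 had 94.9 CPM (23.3 to 34.2), E16 red replicate 4 had 2.72 CPM (0 to 0.423) and E16 yellow replicate 5 had 5.82 CPM (0 to 1.07). Lmo4 had 633 CPM in E16 red replicate 5 (2.11 to 156) and 268 CPM in E16 yellow replicate 7 (69.7 to 138). That same yellow library had 199 CPM of Lhx2 (51.3 to 107). E16 yellow replicate 7, E16 red replicate 5 and E13 green replicate 4 had under 10000 detected genes (7858, 8803 and 9610). All of them were left out under the correlation rule. Dmrta2 had 8.46 CPM in E16 red replicate 7 (0 to 3.30), from 4 counts.

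The 3 libraries left out for few uniquely aligned reads were looked at for the members too, and 4 values exceeded every E13 library kept. E13 yellow replicate 3 had 972 CPM of Nr2f1 (70.8 to 349 in the 15 kept), 104 CPM of Nr2f2 (0 to 47.5) and 246 CPM of Lmo4 (6.43 to 186). E13 green replicate 5 had 160 CPM of Sp8 (0 to 94.9).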

How the results depend on the processing

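Of 1314 alternative fold changes of the members, 1240 kept both sign and call and 61 reversed, 37 of these with 1 library or embryo left out. Sp8 in green cells passed in each of the 19 alternatives that tested it, with its E16 green libraries at 0 in all of them. In green, DESeq2's Wald test passed 2 members (Sp8 and Lhx2), and a mean count of 50 or more passed 0, Sp8 being untested there. In the summed embryos DESeq2 passed 2 (Sp8 and Dmrta2, -3.07, adjusted p = 0.0489), and 0 passed under the correlation rule (libraries correlating poorly with their group) or without libraries under 10000 genes detected, an alternative chosen after seeing the data, where Sp8 had -5.13 (adjusted p = 0.195). Leaving 1 embryo out gave 0 to 1. The cause of these changes was not tested.

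Under the correlation rule and without libraries under 10000 genes alike, Lmo4 between ages was -0.00495 in yellow, -0.30 in red and -0.12 in the summed embryos, Nr2f2 in red was 0.078, Nr2f2 in singly colored against yellow cells at E16 was 0.47 and 0.49, and the age difference of Emx2 was -1.04 and -0.97. With all 39 libraries, singly colored against yellow cells at E13 gave -0.46 for Emx2, -1.21 for Nr2f1 and -0.24 for Dmrta2, and the age difference of Lhx2 was 0.13. Nr2f1 at E13 was -0.0176 with DESeq2 size factors, -0.0173 in DESeq2's Wald test and -0.0166 without a count filter. With no replicate block, Lmo4 was 0.12 at E13 and 0.33 at E16, Emx1 at E16 was -0.17 and the age difference of Dmrta2 was -0.28, and no call on a member changed. With red and green summed and the replicate block kept, Lmo4 at E16 was 0.22.

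With 1 library left out, the fold change between ages ran from -1.08 to 0.44 for Emx1 in yellow, from -0.74 to 0.089 for Nr2f2 in red and from -0.56 to 1.00 for Lmo4 in red. For singly colored against yellow cells it ran from -0.35 to 0.22 for Nr2f1 and -0.61 to 0.011 for Lmo4 at E13, and from -1.22 to 0.084 for Nr2f2 and -0.49 to 0.16 for Lmo4 at E16. Its age difference ran from -0.38 to 0.049 for Lhx2, -0.69 to 1.13 for Dmrta2 and -0.27 to 0.49 for Lmo4.

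Counts over all genes moved more. Against 17 genes in yellow, the correlation rule gave 146, DESeq2 195 and no count filter 55. Against 36 in red, they were 5 with all 39 libraries, 189 under the correlation rule, 297 by DESeq2 and 89 in 1 fit over 6 groups. Against 155 in green, they were 36 with all 39 libraries and 690 by DESeq2, and against 370 in the summed embryos, 212 under the correlation rule and 1083 by DESeq2. For singly colored against yellow cells at E13 (1 gene) they were 538 by DESeq2, 9 under the correlation rule and with no replicate block, 20 with no count filter, 2 with DESeq2 size factors, and 0 with all 39 libraries or red and green summed. At E16 (0 genes) they were 82 by DESeq2 and 2 with no count filter, and for the age difference (0 genes) 215 and 26.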
